A study of Cichorium intybus with 5 samples.

Results

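Of the 2112 probes of the chicory cDNA array, 3 represent a polygalacturonase inhibiting protein (PGIP, clone E012E7), an extracellular dermal glycoprotein precursor (EDGP, clone E010H12) and a gene listed as protein kinase family protein (clone E001C5). They were selected by clone name, from their listed functions and Arabidopsis hits. The study placed all 3 among its genes responding to the β-D-glucosyl Yariv reagent (β-Glc Y) on these same samples, so that their β-Glc Y ratios describe the response and are no independent evidence of it. It also took them as genes not changed by culture without the reagent, so the lack of a call there follows from this choice. Leaf explants came from 2 *Cichorium intybus* genotypes of the landrace Koospol, the embryogenic K59 and the non-embryogenic C15, which was obtained by selfing K59. Each was compared after 4 days of culture in somatic embryogenesis (SE) induction medium (d4) with uncultured explants (d0), and after 4 days in this medium with 250 µM β-Glc Y (Y+) with 4 days in the medium without it (Y-). Culture was on a shaker in the dark, so d4 and d0 explants differ in more than the medium. The fifth comparison was K59 d0 with C15 d0. By the study, the clones on the array came from libraries subtracted between K59 and C15 at d4. They represent fewer unique genes than there are probes. Ranks and shares over all probes therefore describe this array and not all transcripts of the plant. Each genotype is a single line, leaves of 12 plantlets were pooled per replicate, and no inactive Yariv analogue was used as a control.

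Each measurement is the log2 of the ratio between 2 RNA samples labelled with Cy5 and Cy3, with the sample named first on top. A log2 ratio of 1 is a doubling, and the methods filtered at 1 or above, or at -1 or below. They also used a false discovery rate (FDR) and the significance analysis of microarrays (SAM). Here a probe is called on the log2 ratio alone. Each condition was run, by the methods, on 3 biological replicates and 6 hybridizations, of which the deposited table keeps 1 value per probe and comparison. No replicate spread could therefore be computed, no test was possible, and no difference given here has been set against experimental error. The values are ratios without intensities, so neither the level of these transcripts nor the identity of the tissue by its marker genes could be examined. In whole explants, a change in the number of cells of a type and a change in RNA per cell cannot be told apart.

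PGIPs are secreted leucine-rich repeat proteins of the plant cell wall. They bind the polygalacturonases with which fungi degrade pectin and slow the digestion of its homogalacturonan, and in many plants their genes respond to wounding and pathogens. EDGP was first described in carrot as a secreted glycoprotein of the dermal tissues. It belongs to a family that resembles aspartyl proteases and includes inhibitors of microbial enzymes that cut xyloglucan, a hemicellulose. β-Glc Y, a synthetic dye carrying glucose units, binds to arabinogalactan-proteins, which are proteoglycans of the cell wall and plasma membrane.

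The closest Arabidopsis genes listed for the 3 clones are AT5G06860 for PGIP, AT1G03220 for EDGP and AT1G03230 for E001C5. The numbers of the hits of EDGP and E001C5 are consecutive, which places these genes next to each other on Arabidopsis chromosome 1. Both are known in Arabidopsis as genes of the aspartyl protease-like family of EDGP, whereas the study's list calls E001C5 a protein kinase. The clone sequences were not used here, so the conflict between the listed function and the listed hit was not resolved, and the gene is called E001C5 below. It is also not known here how similar the sequences of the E010H12 and E001C5 probes are. Their ratios may therefore not be independent of each other.

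With β-Glc Y, the log2 ratios of all 3 probes were above 0 in both genotypes, as were those of 34.5% of the 1044 probes with both values, and they were among the highest on the array. EDGP reached a log2 ratio of 1.54 in explants of K59 and of 1.56 in those of C15, or 2.91-fold and 2.95-fold, and was the highest of the 1201 probes with a value in K59 and of the 1260 in C15. E001C5 had 0.99 in K59 and 1.25 in C15, or 1.99-fold and 2.38-fold, and ranked 8 in K59 and 3 in C15. PGIP had 0.87 in K59 and 0.96 in C15, or 1.83-fold and 1.95-fold, and 1.17% of the probes in K59 and 1.19% in C15 stood at or above it. The order EDGP, E001C5, PGIP was the same in both genotypes. In K59, E001C5 and PGIP lay 0.12 apart on the log2 scale and EDGP 0.55 above E001C5, whereas in C15 the steps were 0.31 between EDGP and E001C5 and 0.29 between E001C5 and PGIP.

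**Figure D1:**
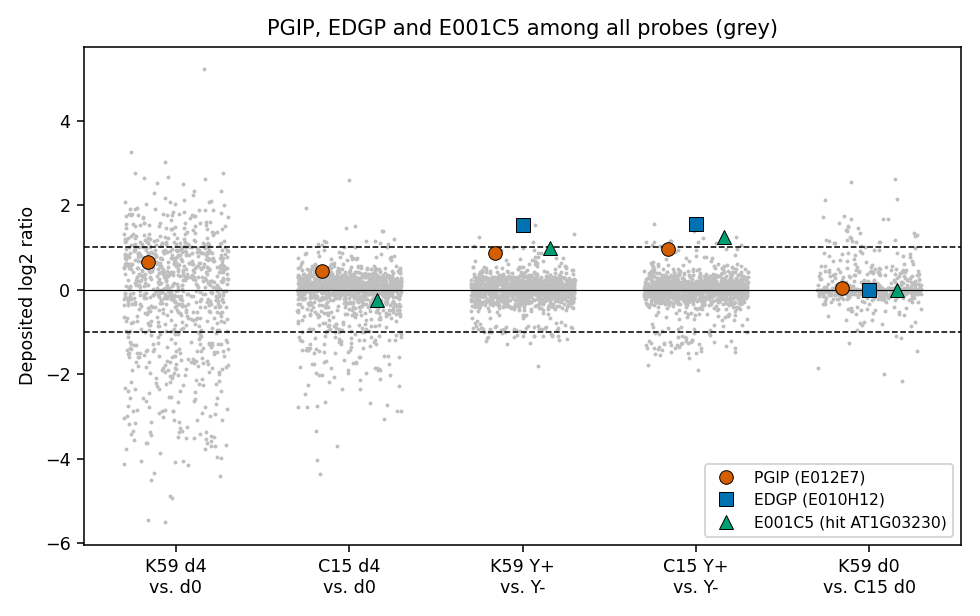
Deposited log2 ratio (vertical axis) of PGIP, EDGP and E001C5 in each of the 5 comparisons (horizontal axis), over all probes with a value (grey points, spread sideways at random), with dashed lines at 1 and -1. The 3 symbols stand at the upper edge of the probes in both β-Glc Y comparisons (0.87 to 1.56), near the bulk after induction (-0.25 to 0.65) and at or next to 0 at d0. A missing symbol is a missing value.

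At the threshold of 1, EDGP alone was called in K59, where 0.583% of all probes were, and EDGP and E001C5 were called in C15, where 1.03% were. EDGP was the only one called in both genotypes, as were 6 of the 1044 probes with both values (0.575%). E001C5, at 0.99, was just under the threshold in K59, while PGIP stayed below 1 in both genotypes. PGIP is still on the study's β-Glc Y list. All 3 were among the 13 probes (1.25%) at or above 0.75 in both genotypes. No probe of the 3 was near -1, although more probes on the array were called down than up, with 2% at or below -1 in K59 and 3.81% in C15.

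The ratio was lower in K59 than in C15 for each of the 3 genes. K59 minus C15 was -0.02 for EDGP, -0.09 for PGIP and -0.26 for E001C5. Each gene's clone plate was inferred from the start of its clone name. With the plate median subtracted, the 3 differences were -0.16, -0.10 and -0.12, so that the sign was kept but not the order. Over the 1044 probes this difference had a median of 0.01 and a spread of 0.19 (the median absolute deviation multiplied so as to equal the SD where values are normally distributed). Differences at least as large, in either direction, were seen for 93% of the probes in the case of EDGP, 65.4% for PGIP and 24.8% for E001C5. E001C5 passed the threshold in C15 and not in K59, but a difference between the genotypes was not tested.

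**Figure D2:**
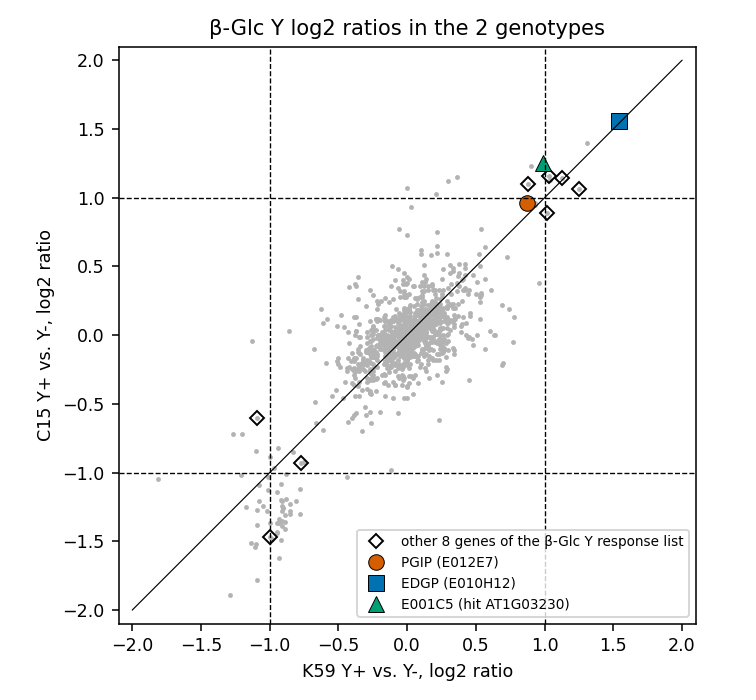
Log2 ratio of Y+ over Y- in K59 (horizontal axis) against C15 (vertical axis) for the 1044 probes with both values (grey points), with PGIP, EDGP and E001C5 as coloured symbols and the 8 other genes of the study's β-Glc Y list as open diamonds. The solid line marks equal ratios and dashed lines mark 1 and -1. EDGP lies farthest to the upper right, close to the line of equal ratios, and E001C5 lies above that line by 0.26.

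SE induction without the reagent gave values for only some of these probes. For PGIP the log2 ratio of d4 over d0 was 0.65 in K59 explants and 0.44 in C15 explants, or 1.57-fold and 1.36-fold. Induction ratios in K59 were widely scattered, with a spread over all probes of 1.16 against 0.30 in C15, so that 30.1% of the 867 probes in K59 but 8.04% of the 1169 in C15 stood at or above PGIP. The K59 minus C15 difference of 0.21 was exceeded or equalled in size by 81.5% of the 811 probes with both values. PGIP belongs to a plate of clones whose induction ratios had a median of 0.49 in K59 (47 probes) and 0.15 in C15 (53 probes). After this median was subtracted, the PGIP value was 0.16 in K59 against 0.29 in C15, and the sign of the difference turned to -0.13. Whether a plate median reflects the array or the clones placed on that plate was not tested.

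In C15, E001C5 stood at -0.25 on the log2 scale at d4 vs. d0, or 0.841-fold, with 78% of the probes at or above it, and no value in K59. EDGP had no induction value in either genotype. None of the 3 available values passed the threshold, which 40.7% of all probes did in K59 and 9.84% in C15, in either direction. The study's β-Glc Y list was limited to genes not changed between d0 and d4, so this absence follows from their choice. Among the 1044 probes with both β-Glc Y values, 87 (8.33%) lacked both induction values as EDGP did, and 204 (19.5%) lacked the K59 one alone as E001C5 did. The methods remove low, saturated and artefactual spots and probes that disagree in the dye swap, and the reason for each missing value is not given. Whether EDGP responds to induction could not be examined.

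The induction and β-Glc Y ratios can be added where both exist, since explants after 4 days without the reagent are on top of the first ratio and at the bottom of the second. The sum estimates Y+ explants at d4 over d0, across separate hybridizations. For PGIP it was 1.52 in K59 and 1.40 in C15, or 2.87-fold and 2.64-fold. Both sums passed 1, which neither ratio did alone. In C15, 2.24% of the 1070 probes reached a sum of 1 and 0.654% reached that of PGIP, whereas in K59, 18.3% of the 769 probes reached 1 and 7.41% that of PGIP. For E001C5 in C15 the sum was 1.0, because the ratio of -0.25 after induction is taken off that of 1.25 with the reagent, and it fell under the threshold, to 0.94, when the median of each comparison was subtracted first.

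At d0, the K59 vs. C15 log2 ratio of PGIP was 0.05, and those of EDGP and E001C5 were listed as exactly 0.00. None of these was past the threshold, as 8.13% of the 492 probes with a value were. The direction of this comparison rests on the labels alone, and with the sign turned the value of PGIP is -0.05. The study's supplementary list holds 135 genes that it found significant on these same samples. Exact zeros are listed for 48 of these 135 and for 9 of the 357 other probes with a value. No statement of equal expression is therefore based on these zeros. Adding the ratios placed PGIP 0.26 higher in K59 than in C15 after 4 days without β-Glc Y and 0.17 higher with it. With the sign at d0 turned, the same values were 0.16 and 0.07, all small beside the β-Glc Y ratios of this gene.

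The genes of the array most like each of the 3 were found by the distance between their log2 ratios over the induction and β-Glc Y comparisons in which the gene had a value. PGIP, with 4 values, was nearest to a homologue of LBD41 (clone E012F12, distance 0.44), a LATERAL ORGAN BOUNDARIES domain protein. The 20S proteasome alpha subunit B (clone N102E10, 0.47) and clone E016A6 (0.47), which is outside the study's list, followed. The nearest other listed gene was the peroxidase ATP24a (clone E002F2, 0.61). E001C5, with 3 values, was nearest to the homologue of AGD6 (clone E010G4, 0.12), an activator of the GTPase of ADP-ribosylation factors. Clone E001G8 (0.33), outside the study's list, and the peroxidase ATP24a (0.36) followed. Among the listed genes, HMG-CoA reductase (clone E011F11, 0.44) was the third. Its K59 induction value of -2.05 does not enter this distance, since E001C5 has no such value. E010G4 followed E001C5 in all 3 comparisons, with 1.03 (K59) and 1.16 (C15) for β-Glc Y and -0.32 in C15 after induction.

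EDGP could be compared over the β-Glc Y values alone, and the nearest was HMG-CoA reductase (distance 0.28), an enzyme of the mevalonate pathway. The 20S proteasome alpha subunit B (0.58) and the protease inhibitor PI2 (clone N101E12, 0.59) came next. After induction, HMG-CoA reductase had -2.05 in K59 and -0.52 in C15, and the distance to EDGP leaves these values out. In the same measure EDGP and E001C5 lay 0.63 apart over 2 comparisons. PGIP lay 0.90 from EDGP over 2 and 0.76 from E001C5 over 3. Only probes with a value in all of a gene's comparisons were candidates. EDGP and E001C5 could therefore not be listed near PGIP, nor EDGP near E001C5. Where they could be listed, PGIP and E001C5 were not among the 3 nearest of EDGP, nor PGIP among those of E001C5. E001C5, at 0.63 from EDGP, came close to PI2 at 0.59. These distances use between 2 and 4 values each and describe likeness only.

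The study's β-Glc Y list holds 11 genes, these 3 and 8 others, chosen on the same samples. In both genotypes 8 of the 11 had a ratio above 0. EDGP was the highest of them in each, and PGIP the lowest of the 8 in K59 and the next to lowest in C15, where LBD41 stood at 0.89. The median of the 8 other genes was 0.95 in K59 and 0.97 in C15, with 4 at or above 1 in each genotype and 2 in K59 and 1 in C15 at or below -1. All probes together had a median of 0.00 in both. The highest of the 8 were the 20S proteasome alpha subunit B in K59 (1.25) and the AGD6 homologue in C15 (1.16), and the lowest were the serine-type endopeptidase inhibitor (clone E017B9) in K59 (-1.09) and GAPDH (clone E002A3) in C15 (-1.47).

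On the study's list of 135 significant genes, 15 are listed under the cell wall. PGIP and EDGP, listed for their response to β-Glc Y, are not among these. The study listed the 15 for their regulation by induction on these same samples. Genes changed by the reagent but not by induction were listed apart, so a gap between the 2 lists partly follows from how they were made. With the reagent, none of the 15 reached 1 in K59 (14 values) or C15 (15 values), and 3 in K59 and 4 in C15 were at or below -1. The median was -0.13 in K59 and -0.17 in C15. The highest value was that of a glycine-rich protein (clone E015F12) in both, 0.53 and 0.50, and the lowest were those of the arabinogalactan-protein (AGP, clone E005B11) in K59, -1.81, and of a mucin-like protein (clone E012B9) in C15, -1.36. The pectin-acting enzymes of the list stayed near 0. The polygalacturonase (clone E012H2, hit AT4G23820), an enzyme that cuts homogalacturonan, had -0.07 in K59 and -0.24 in C15. The pectinesterase (clone E007B4, hit AT3G49220), which removes methyl esters from pectin, had 0.07 and 0.18.

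After induction, the polygalacturonase had 1.5 in K59 and 0.15 in C15, and the pectinesterase 0.89 and 0.79, the highest value of the cell wall list in C15. PGIP, with 0.65 and 0.44, lay below the pectinesterase in both genotypes and below the polygalacturonase in K59 only. The cell wall list as a whole had 5 genes at or above 1 and 6 at or below -1 in K59, with a median of 0.81, and 0 and 4 in C15, with a median of -0.15. Of all probes, 17.3% were at or above 1 and 23.4% at or below -1 in K59, and 1.54% and 8.3% in C15. The study listed the cell wall genes for their regulation by induction on these same samples, so a larger share called among them follows from the choice. A glycine-rich protein (clone E017F4, 1.88) was highest in K59, and an extensin-related protein (clone E001A11) was lowest in both, with -3.70 in K59 and -2.75 in C15.

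A list of 9 genes of defence or wounding, picked by name from the study's listed genes, shares 3 with the β-Glc Y list. The list leaves out PGIP, and the study had listed its genes on these same samples. It does not stand for defence genes as a whole. With the reagent its median was -0.32 in K59 and -0.18 in C15, with 1 gene at or above 1 and 1 at or below -1 in K59, and 2 and 1 in C15. PI2 was highest in both (1.13 and 1.14), while the serine-type endopeptidase inhibitor was lowest in K59 (-1.09) and snakin 2 (clone N104F11), an antimicrobial peptide, in C15 (-1.35). After induction its median was 0.26 in K59 over 6 values and 0.53 in C15 over 9. Polyphenol oxidase (clone E017A6, 1.23) and snakin 2 (1.93) were the highest values, in K59 and C15 each, and a peroxidase (clone E013D3) was the lowest in both, with -1.74 and -0.79.

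**Figure D3:**
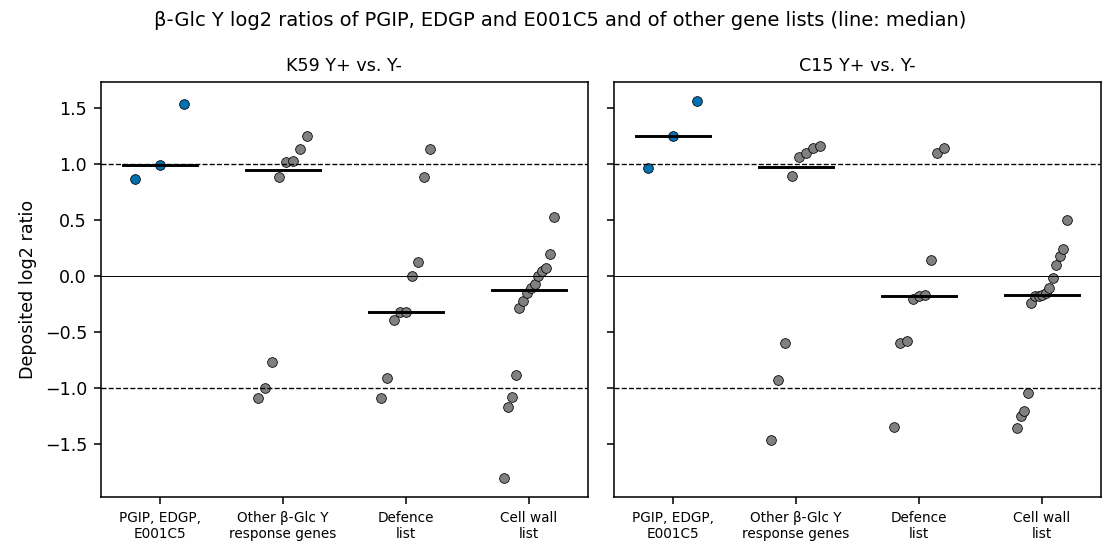
Log2 ratio of Y+ over Y- (vertical axis) in K59 (left) and C15 (right) of PGIP, EDGP and E001C5 (blue) and of the 8 other β-Glc Y genes, the 9 defence genes and the 15 cell wall genes (grey, 1 point per gene with a value), with the median of each as a bar. Some genes are in more than 1 list. The 3 blue points lie between 0.87 and 1.56, above every gene of the cell wall list, whose highest values are 0.53 in K59 and 0.50 in C15. The study listed the 3 for their β-Glc Y response and the cell wall genes for regulation by induction, so this gap partly follows from the lists.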

How the data were processed

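The deposited values are log2 ratios, which the authors computed on median spot intensities less background, from 2-colour arrays on which PCR fragments of cDNA clones were spotted 3 times. Their lowess and tip-wise medians per slide already correct the values for intensity-dependent dye bias and for differences between print tips. A missing value can stem from the authors' spot quality filter or from conflicting signs between the dye orientations. How replicates were combined into 1 value is not given in the sources used here, so precision is unknown. The direction was taken from the channels of the labels. Values were used as deposited.

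Members and lists were chosen with earlier results of these data known. Probes were counted at a log2 ratio of 1 or -1, ranked among all probes of a comparison, and compared by Euclidean distance. FDR and SAM were not repeated. Named genes are the 3 members, their 3 nearest probes and 3 nearest listed genes, the polygalacturonase and pectinesterase, and the highest and lowest gene of each list. Gene names, Arabidopsis hits and list headings come from the study's supplementary list, whose ratios and SAM scores were not used. Alternatives were other thresholds, the median of the comparison or of the 96-well plate subtracted, other sets of probes for ranks, and other distances. The plate was inferred from the clone name and is not given by the labels. The counting was tested on simulated data. All steps ran in Python 3.11.15 (numpy 2.4.6, pandas 2.3.3, matplotlib 3.10.9).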

Additional observations from a re-analysis of the deposited data

How the results depend on the processing

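Each value rests on 1 deposited number, so left-out replicates could not be tried. No paired analysis was possible because every comparison is held as 1 value per probe. Of 184 alternative values, 149 stayed the same. That is, log2 ratios and sums kept their side of the threshold, genotype differences kept their sign, and counts and shares stayed within 1.5 times. The d0 value of PGIP with its sign turned was counted as moved. A set of nearest probes was counted as the same where 2 of its 3 probes were kept. Many of the unchanged counts were 0 under every setting and had little room to move. Among the remaining 35, the β-Glc Y shares of EDGP moved only with the size of the probe set. Why the others moved was not tested. EDGP was called with β-Glc Y in both genotypes at thresholds of 0.75, 0.95, 1 and 1.5, and at 1 also with the median of the comparison or the plate subtracted. With plate medians subtracted, E001C5 reached 1.03 in K59, so that 2 genes were called there and in both genotypes, and the K59 minus C15 difference of PGIP after induction was -0.13. The same setting gave K59 minus C15 differences with the reagent of -0.16 for EDGP and -0.12 for E001C5. Both counts were also 2 at a threshold of 0.95 and 3 at 0.75, 2 genes were called in at least 1 genotype, and 1 was called in C15 at 1.5. Subtracting the median of the comparison took the sum of E001C5 in C15 to 0.94. Turning the sign at d0 gave -0.05 for PGIP.

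Shares of probes at or above a gene depended on the probes used. Among the study's listed genes they were 18.7% for PGIP in C15 induction, 7.26% (K59) and 5.97% (C15) with β-Glc Y, 0.806% and 0.746% for EDGP, and 5.65% and 2.24% for E001C5. Among probes with all 5 values, with the gene itself added, they were 0.214% in each genotype for EDGP and 1.07% in K59 and 0.427% in C15 for E001C5. With β-Glc Y, EDGP was the highest in each of these sets, so its share changed only with the number of probes. With plate medians subtracted they were 12.9% for PGIP in C15 induction and 37.8% for EDGP at d0. At a threshold of 0.75 the cell wall list had 8 genes up in K59 and 1 up and 7 down in C15 after induction. The 8 other β-Glc Y genes had 1 up in each genotype after induction and 2 down in C15 with the reagent. The defence list had 2 up in K59 and 1 down in C15 after induction, and 2 up and 2 down in K59 with the reagent.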
